A study of Mus musculus with 4 samples.

Results

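The immunity-related GTPases (IRG proteins) of mouse testes were followed in 4 libraries of poly(A) RNA, through the 8 interferon-inducible genes of the family that the deposited tables list as Irgm1, Irgm2, Igtp, Iigp1, Ifi47, Tgtp1, Tgtp2 and Gm12250. These are 8 of the 55401 rows of each table, and each symbol occurred once. They were chosen by name with the difference between the genotypes already known, so their values are described without a test. The testes came from C57BL/6J mice at postnatal day 14. Of the libraries, 2 were labelled heterozygous (Kctd19+/-, called het) and 2 knockout (Kctd19-/-, called ko). No wild type is among them, the het animals carry 1 mutant allele, and the stretch of Kctd19 that was removed is not named in the labels. The series asks which transcripts differ between such testes.

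IRG proteins are large GTPases that protect mouse cells against bacteria and protozoa living in vacuoles, and most of their genes are switched on by interferon gamma. Irgm1, Irgm2 and Igtp (also called Irgm3) are the regulators. They carry a methionine where other GTPases have a lysine in the nucleotide-binding loop, sit on the cell's own membranes and hold the effectors inactive there. The effectors Iigp1 (Irga6), Ifi47 (Irgd), Tgtp1 and Tgtp2 (both Irgb6) and Gm12250 (Irgb10) load onto the vacuole of the parasite and break its membrane.

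The last 120 bases before the annotated start are shown for the 6 genes whose 250 upstream bases held an interferon motif (RefSeq, GRCm38.p6, 5′ to 3′ on the gene's strand). Capitals mark the core of the interferon-stimulated response element, which is GAAA, any 2 bases and GAAA again, and the gamma-activated site, TTCNNNGAA, each searched on both strands. The windows are chr11:48871421-48871540 on the minus strand for Irgm1, chr11:58214857-58214976 on the plus strand for Irgm2, chr11:58199436-58199555 on the plus strand for Igtp, chr11:48992247-48992366 on the minus strand for Tgtp1, chr11:49064213-49064332 on the minus strand for Tgtp2 and chr11:58183723-58183842 on the plus strand for Gm12250.
Irgm1: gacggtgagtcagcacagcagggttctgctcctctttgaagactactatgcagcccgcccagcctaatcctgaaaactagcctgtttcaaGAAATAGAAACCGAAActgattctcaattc
Irgm2: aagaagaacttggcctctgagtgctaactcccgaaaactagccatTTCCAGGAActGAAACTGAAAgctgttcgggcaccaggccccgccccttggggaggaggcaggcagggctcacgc
Igtp: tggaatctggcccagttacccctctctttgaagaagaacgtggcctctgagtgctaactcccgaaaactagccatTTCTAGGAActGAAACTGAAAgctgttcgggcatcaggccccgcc
Tgtp1: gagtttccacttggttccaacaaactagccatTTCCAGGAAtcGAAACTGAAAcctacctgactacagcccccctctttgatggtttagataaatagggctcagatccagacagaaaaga
Tgtp2: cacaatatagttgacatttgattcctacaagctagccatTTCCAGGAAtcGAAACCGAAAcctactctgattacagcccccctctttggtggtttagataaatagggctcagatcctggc
Gm12250: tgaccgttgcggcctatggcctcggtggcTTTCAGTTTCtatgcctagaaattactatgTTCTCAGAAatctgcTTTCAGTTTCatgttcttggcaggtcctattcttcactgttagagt

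Both motifs stood in the same order and 2 bases apart in Irgm2, Igtp, Tgtp1 and Tgtp2, within 88 bases of the start. This arrangement of 21 bases was looked for after the matches were seen. It occurred in 5 of the 32536 upstream windows of 250 bases searched (0.0154%), which are the 4 named and that of Gm12185, an IRG relative on chromosome 11. In Gm12185 it read TTCCAGGAAtaGAAAGTGAAA. Between members it differed by 1 base for Irgm2 and Igtp, by 1 base for Tgtp1 and Tgtp2, and by up to 4 bases for Igtp and Tgtp2. Irgm1 held a pair of overlapping response element cores and no gamma-activated site. Gm12250 held 2 cores on the opposite strand with a gamma-activated site between them. The response element core occurred in 6 of the 7 members with an entry and in 2.98% of all windows, the gamma-activated site in 5 of 7 and in 7.04%, and both in 5 of 7 and in 0.329%. Ifi47 held neither in this window. A match is a run of letters and no evidence of binding.

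**Figure D1:**
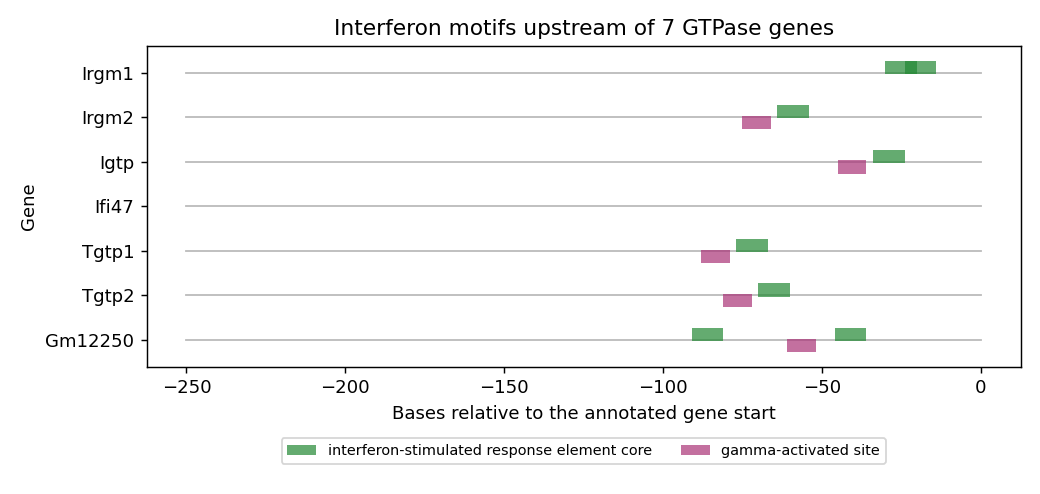
Positions of the response element core (green) and the gamma-activated site (purple) in the 250 bases before the annotated start of 7 genes, in bases from the start. In Irgm2, Igtp, Tgtp1 and Tgtp2 the site lies 2 bases upstream of the core, Irgm1 has 2 overlapping cores, and Ifi47 has no match.

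Of the 8 genes, 7 lie on chromosome 11 of GRCm38 and Iigp1 lies on chromosome 18. Irgm1 (48861968 to 48871683), Tgtp1 (48985327 to 48994172), Tgtp2 (49057194 to 49064206) and Ifi47 (49076587 to 49096974) form a cluster on chromosome 11. Gm12250 (58187739 to 58189012), Igtp (58199556 to 58207591) and Irgm2 (58199618 to 58222782) form another. These spans follow the GENCODE M21 annotation. For Irgm1, Tgtp1 and Irgm2 it begins the gene further upstream than RefSeq, so their windows above lie inside the spans.

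The tables hold FPKM, a level per length of exon and per assigned reads of the library, so genes can be compared with each other. The libraries held 12155094 to 19430368 assigned reads, recovered from the steps of the values, where 1 step is 1 read. Testis markers were present in all 4 libraries: Sycp1, of the synaptonemal complex of spermatocytes, at 104 to 162 FPKM and Sox9, of Sertoli cells, at 41.7 to 47.9 FPKM. Kctd19 measured 29.7 and 18.2 FPKM in the het pair against 12.8 and 15.6 FPKM in the ko pair (log2 difference -0.69, SE 0.25, limma with Benjamini-Hochberg adjusted p = 0.529), so its level does not check the labels. Transcripts of late spermatids, cells that normally form later, stood apart in ko replicate 1, where 5 markers summed to 39.3 FPKM against at most 2.20 FPKM in the other libraries. In whole testis RNA, fewer cells of a type and less RNA per cell cannot be told apart.

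Among the 8 genes, the regulators were the most abundant in het testes, at about 1 to 3 FPKM. Igtp, whose protein sits on the endoplasmic reticulum and lipid droplets, had 1.08 and 2.56 FPKM (32 and 63 reads) in the het pair against 20.3 and 24.2 FPKM in the ko pair (798 and 714 reads). Irgm2, a regulator on the Golgi apparatus, had 1.28 and 1.72 FPKM in the het pair against 14.7 and 17.2 FPKM in the ko pair. Irgm1, a regulator on the Golgi apparatus and lysosomes that also bears on autophagy, had 1.11 and 1.30 FPKM in the het pair against 7.19 and 9.13 FPKM in the ko pair. For all 3 regulators the ko pair exceeded the het pair, and ko replicate 2 was the higher of the ko libraries. The group means differed 12.2-fold for Igtp, 10.7-fold for Irgm2 and 6.78-fold for Irgm1. The het libraries differed from each other 2.37-fold in Igtp, and without het replicate 2 its fold was 20.6.

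The effectors were low in het, each under 1 FPKM. Iigp1, an effector that coats the vacuole of Toxoplasma in mouse cells, had 0.587 and 0.509 FPKM (50 and 36 reads) in the het pair against 16.6 and 16.8 FPKM in the ko pair (1878 and 1429 reads). Its means were 0.548 ± 0.0551 and 16.7 ± 0.170 FPKM (SD, n = 2 each), which is 30.5-fold apart. Ifi47 had 0.387 and 0.632 FPKM in the het pair against 7.62 and 7.52 FPKM in the ko pair, 14.9-fold apart. The ko libraries agreed most closely in these effectors, with the higher 1.01 times the lower in each.

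Gm12250, an effector that in mouse cells also opens bacteria to the inflammasome, had 1 and 3 reads in het (0.0536 and 0.194 FPKM) against 151 and 88 reads in ko (6.10 and 4.74 FPKM). The ratio of its depth-scaled reads was 47.1, with an exact 95% counting interval of 18.1 to 174 that leaves out the spread between animals. Leaving out het replicate 1 gave 28.0-fold and leaving out het replicate 2 gave 101.1-fold, so the size rests on few het reads. The counted model is 1 exon of 1274 bases that GENCODE M21 calls a processed pseudogene, while RefSeq places a protein-coding gene from 58183843 to 58190198 around it. Reads outside that exon are not in the value.

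Tgtp1 and Tgtp2, tandem copies that encode the Irgb6 effector, cannot be separated with confidence. Of the 50-base stretches of Tgtp1 transcripts, 79.4% also occurred in Tgtp2, and 85.8% of those of Tgtp2 occurred in Tgtp1. Tgtp1 had 0.128 and 0.282 FPKM in the het pair against 0.883 and 1.16 FPKM in the ko pair. Tgtp2 had 0.0930 and 0.112 FPKM in the het pair, with 4 reads in each library, against 2.26 and 1.63 FPKM in the ko pair. Summed over the pair, 10 and 15 reads in het stood against 184 and 124 reads in ko. The ko pair exceeded the het pair in either gene. The fold was 4.97 for Tgtp1, or 7.97 without het replicate 2, and 19.0 for Tgtp2. Tgtp1 carried more FPKM than Tgtp2 in both het libraries and less in both ko libraries. How reads that match several places were handled is not given in the sources used here. If they were left out, both levels are too low. The levels of Tgtp1 and Tgtp2, their ranks and their part in the sums below are therefore uncertain. Igtp and Irgm2 also share 162 exonic bases in the annotation, or 8.01% and 4.39% of their exon lengths, where reads cannot be assigned to 1 of them. Ifi47 shares 217 exonic bases (8.77%) with Gm12188 and Olfr56, 111 of them on the same strand.

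**Figure D2:**
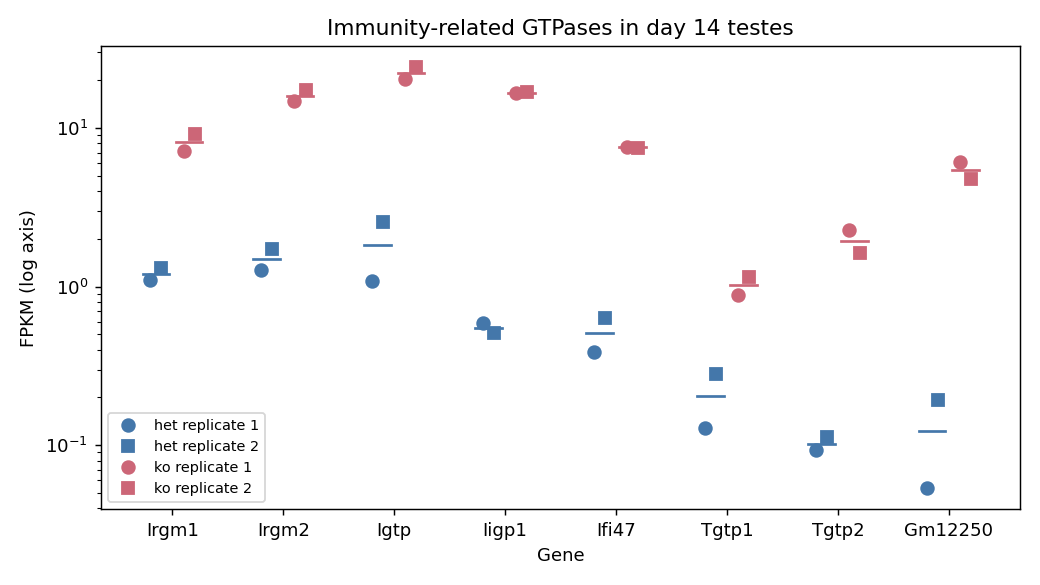
FPKM of the 8 genes in each library on a log axis, with circles for replicate 1, squares for replicate 2 and bars for group means. In every gene the ko pair (red) lies above the het pair (blue), with Igtp highest in ko at 20.3 and 24.2 FPKM.

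The order of the levels differed between the genotypes. In het replicate 1 it ran Irgm2, Irgm1, Igtp, Iigp1, Ifi47, and in het replicate 2 Igtp came first and Ifi47 passed Iigp1. The 3 regulators overlapped in het, as did Iigp1 and Ifi47. In ko, Igtp led both libraries, Irgm2 and Iigp1 overlapped behind it, Irgm1 and Ifi47 overlapped below them, and Gm12250, Tgtp2 and Tgtp1 followed without overlap in that order. The 8 genes summed to 4.71 and 7.31 FPKM in het and to 75.6 and 82.5 FPKM in ko. Effectors made up 26.5% and 23.6% of that sum in het and 44.2% and 38.7% in ko. Iigp1 alone held 12.5% and 6.96% in het and 21.9% and 20.4% in ko, while Irgm1 held 23.5% and 17.8% in het and 9.51% and 11.1% in ko. Regulators remained the larger share in all 4 libraries.

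**Figure D3:**
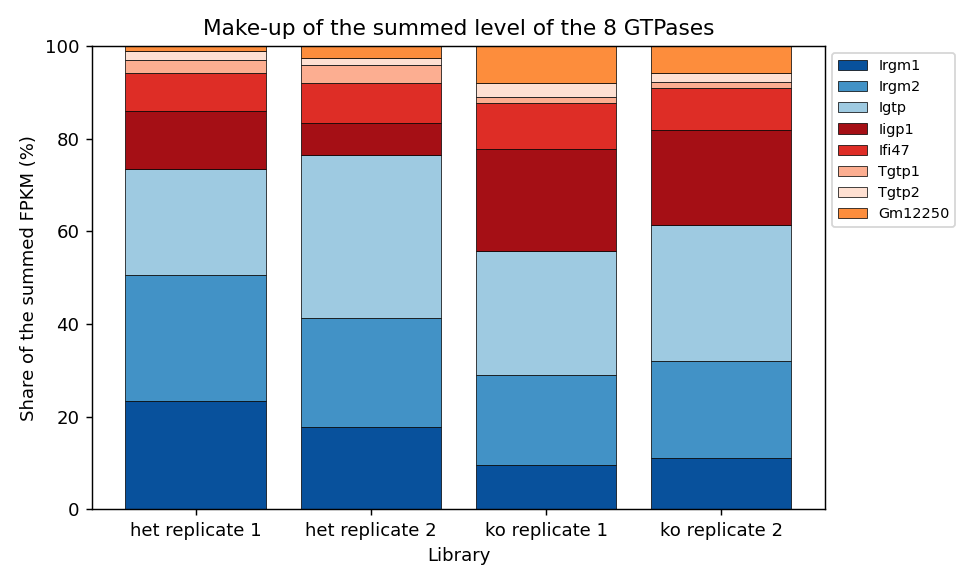
Share of the summed FPKM of the 8 genes held by each, in percent, per library, with regulators in blue and effectors in red and orange. The effectors' share is 26.5% and 23.6% in het and 44.2% and 38.7% in ko.

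Among all tested transcripts the family ranked low in het, while in ko it ranked from the middle upward, except Gm12250 just below the middle and Tgtp1 and Tgtp2, which stayed low. In het, Iigp1 stood above 1.18% and 0.955% of the 17905 genes tested, and in ko above 77.4% and 78.7% of them. Igtp stood above 4.88% and 23.2% in het and above 82.1% and 87.3% in ko. These ranks are within genes filtered on their mean over all libraries. A gene that passed through its ko values, such as Iigp1, is placed low in het by that filter. The log2 differences of log2(FPKM + 1) ran from 0.74 for Tgtp1 to 3.52 for Iigp1, with a median of 2.51 over all 8 genes, beside 0.0095 over all genes tested. This scale understates the change of low genes. Of the 8 genes, 7 had a mean of at least 1 FPKM and entered the fit, Tgtp2 just inside at 1.02 FPKM and Tgtp1 outside at 0.612 FPKM. The 4 effectors among them had het means under 1 FPKM and passed through their ko values, while the 3 regulators were above 1 FPKM in het as well. In all 8 the ko pair exceeded the het pair, an arrangement found in 22.1% of the genes tested, and 0 members had the opposite one, found in 19.7%. Limma called 5 of the 7 higher and 0 lower, beside 0.207% and 0.0112% of all genes. Limma voom on whole reads called 7 of 7 higher and 0 lower, beside 0.774% and 0.619%. At an unadjusted p under 0.05, used for the lists that follow, limma put 4.9% of all genes higher and 4.41% lower. As the family was chosen with this contrast known, these counts are a description only. Without ko replicate 1, the library with spermatid transcripts, the folds ran from 5.64 for Tgtp1 to 38.3 for Gm12250.

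Among relatives of the family outside the 8 genes, Gm4951 on chromosome 18 had 0.387 and 0.404 FPKM in the het pair against 3.74 and 5.71 FPKM in the ko pair. Gm4841, also on chromosome 18, had 0.120 and 0.261 against 1.85 and 2.18 FPKM, and F830016B08Rik, with 4 and 1 reads in het, had 99 and 87 reads in ko. Irgq, a quasi-GTPase, had 3.17 and 4.06 FPKM in the het pair against 3.67 and 2.91 FPKM in the ko pair, and Irgc1, a testis relative that mouse spermatids express without interferon, had 0.292 and 0.352 against 0.679 and 0.367 FPKM.

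Of 15 relatives listed, 12 had a row and 3 were tested, with a median log2 difference of 1.34. Gm4951 and Gm4841 had het values under 1 FPKM and passed the filter through their ko values. The median rests on these genes. Limma called 0 of the 3, with Gm4951 (2.01, SE 0.22) and Gm4841 (1.34, SE 0.22) at Benjamini-Hochberg adjusted p of 0.108 and 0.260. Both were under an unadjusted p of 0.05, and voom called both. Irgq did not pass either test (log2 difference -0.10, SE 0.16, limma with Benjamini-Hochberg adjusted p = 0.869). Irgc1 and F830016B08Rik were under the filter and were not tested. On chromosome 11, Gm12185, which holds the spaced motif pair and shares exonic bases with Tgtp1, had 2 and 5 reads in het and 49 and 47 in ko.

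Guanylate-binding proteins (Gbp), the larger GTPases that attack the same vacuoles beside the IRG proteins, included 3 that rose in ko. Gbp2 rose from 1.98 and 1.63 FPKM to 17.0 and 16.6 FPKM (log2 difference 2.67, SE 0.11, limma with Benjamini-Hochberg adjusted p = 0.0171). Gbp3 rose 7.85-fold to 22.4 and 23.1 FPKM and Gbp7 rose 5.75-fold to 11.4 and 12.8 FPKM (limma, Benjamini-Hochberg adjusted p = 0.0238 for each). Of 11 listed genes 6 were tested, 3 were called higher, 0 lower and 3 not, and voom called 6 higher. Of the 6, Gbp4, Gbp6 and Gbp9 had het means of 0.124, 0.366 and 0.505 FPKM and passed the filter through their ko values. The voom count and the median log2 difference of the 6, which was 1.89, rest partly on them. Limma called 0 genes of any list when any 1 of the 4 libraries was left out, since 0 of all tested genes then passed, while 563 to 986 genes were higher at an unadjusted p under 0.05. In Gbp genes with an entry among the promoters, 5 of 5 held the response element core and 2, Gbp5 and Gbp7, also held a gamma-activated site.

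Of the genes of interferon gamma signalling named here, Nlrc5 rose and the receptor chains were not called. Nlrc5, which switches on class I antigen presentation genes, rose 39.2-fold (limma, Benjamini-Hochberg adjusted p = 0.0325). It stood at 0.161 and 0.213 FPKM in the het pair against 6.13 and 8.54 FPKM in the ko pair. Its het values were under 1 FPKM, so it passed the filter through its ko values. Irf1, a factor that binds the response element in IRG promoters, stood at 3.71 and 4.68 against 11.03 and 14.27 FPKM and was called by voom only (limma, Benjamini-Hochberg adjusted p = 0.130). The receptor chains Ifngr1 (12.6 and 12.3 against 13.8 and 11.8 FPKM) and Ifngr2 (23.2 and 25.9 against 28.2 and 24.8 FPKM) overlapped between the genotypes. The transcript of interferon gamma itself, Ifng, had 0 reads in both het libraries and 3 and 6 reads in ko. That is too few for a test.

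Stat2, which type I interferon receptors activate, rose from 4.43 and 5.18 FPKM to 13.56 and 14.96 FPKM (log2 difference 1.40, SE 0.11, limma with Benjamini-Hochberg adjusted p = 0.0425). In the type I list it was the 1 gene called of 8 tested, and voom called 4 higher. Ifnb1, Ifna4 and Ifne, 3 of the listed type I genes, were listed at 0 in every library. The list's median log2 difference was 0.67.

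Genes whose proteins place IRG proteins on membranes were not called by limma. Limma and voom called 0 of 13 tested autophagy genes, among them Atg5, Atg7 and the Gabarap genes that IRG loading needs, with 0 under an unadjusted p of 0.05. Their log2 differences ran from -0.13 to 0.19, with a median of 0.08. The listed genes with the smallest p were Sqstm1, an autophagy receptor (67.3 and 65.6 against 80.1 and 71.9 FPKM), and Map1lc3b, an LC3 protein (15.3 and 15.9 against 19.6 and 16.4 FPKM). Of 8 tested ubiquitin and membrane partners limma called 0, with 1 under an unadjusted p of 0.05, and voom called 1, Trim21. Trim21, a ubiquitin ligase recruited to vacuoles that carry guanylate-binding proteins, stood at 2.76 and 3.83 against 6.40 and 7.59 FPKM (log2 difference 0.90, SE 0.17, limma with Benjamini-Hochberg adjusted p = 0.297). Bnip3l, a receptor for the removal of mitochondria, stood at 27.7 and 27.2 against 31.5 and 31.0 FPKM.

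**Figure D4:**
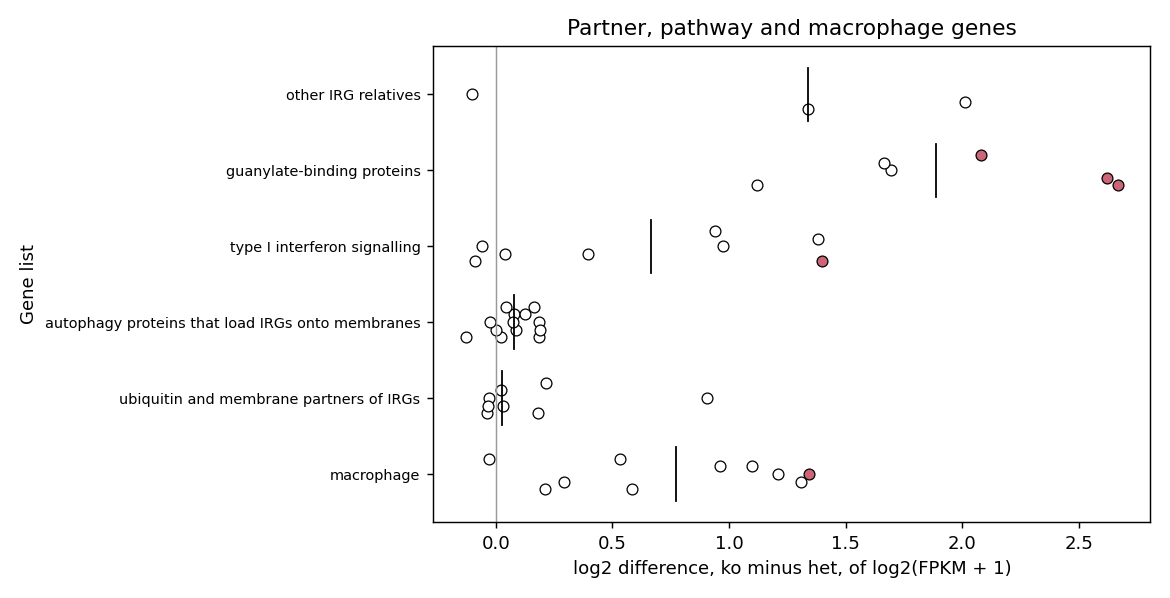
Log2 difference, ko minus het, of log2(FPKM + 1) for every tested gene of 5 IRG-related lists and of the macrophage markers. Filled points were called higher by limma at a Benjamini-Hochberg adjusted p under 0.05, bars are medians, and autophagy genes lie between -0.13 and 0.19 while Gbp genes have a median of 1.89.

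Of the genes beside the IRG genes, 1 was called. Within 100 kb of a member lay 16 other tested genes, of which limma called 1 higher and 0 lower. This was BC023105 on chromosome 18 (60441765 to 60442980), annotated as a processed pseudogene and 49131 bases from Iigp1. It had 1 and 0 reads in het and rose to 4.32 and 4.40 FPKM in ko (log2 difference 2.38, SE 0.17, Benjamini-Hochberg adjusted p = 0.0343 in limma). With so few reads in het, it passed the filter through its ko values. With a pseudocount of 0.1 it was not called (limma, Benjamini-Hochberg adjusted p = 0.175). Among the other 15 were Mrpl22, a mitochondrial ribosomal protein gene 8174 bases from Gm12250, at 18.4 and 18.5 against 21.4 and 20.6 FPKM, and Trim7, a ubiquitin ligase gene 9759 bases from Irgm1, at 17.4 and 20.6 against 20.95 and 21.44 FPKM. The median log2 difference of all 16 was 0.07.

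**Figure D5:**
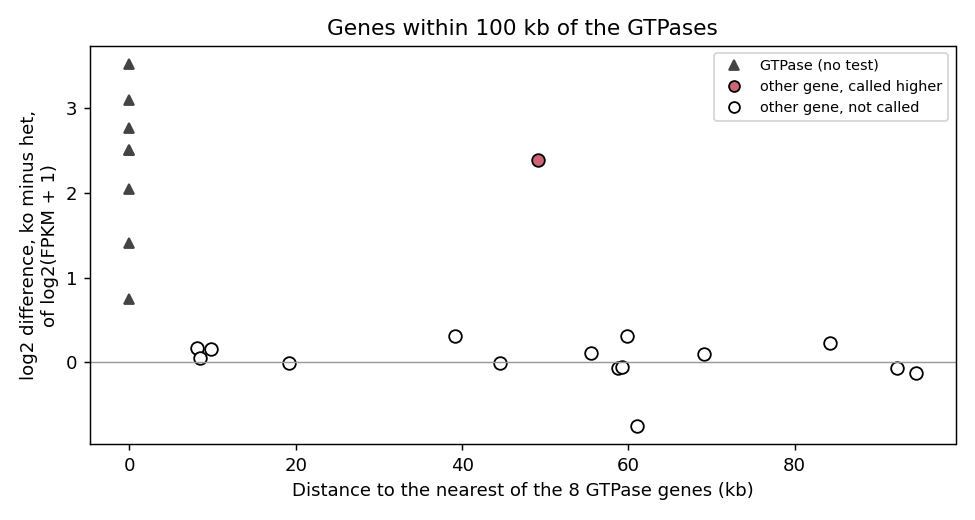
Log2 difference, ko minus het, of log2(FPKM + 1) against the distance in kb to the nearest of the 8 genes, for 16 other tested genes within 100 kb. Triangles at 0 are the 8 genes, with no test, and the filled circle, BC023105 at 2.38, is the 1 neighbour called.

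Outside the family, the genes with a profile most like the median profile of the 7 tested members over the 4 libraries were Tap1, Gbp3, H2-Aa, B2m and Gbp2. The measure was the Euclidean distance between log2(FPKM + 1) values taken from the het mean, which ran from 0.136 for Tap1 to 0.296 for Gbp2. Tap1, which helps carry peptides to class I molecules, stood at 1.17 and 1.43 against 13.6 and 13.3 FPKM. H2-Aa stood at 0.791 and 0.585 against 10.4 and 8.40 FPKM, so it passed the filter through its ko values. B2m, the light chain of class I molecules, stood at 89.3 and 108 against 581 and 464 FPKM. Its level was far above that of the IRG genes at a similar log2 difference. The genes were picked by this measure, so the similar difference is no separate result.

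Markers of macrophages, cells that express IRG genes strongly under interferon, were higher in sum in ko. The 12 listed markers summed to 92.2 and 100.6 FPKM in het and to 213 and 176 FPKM in ko, with 0 listed at 0 in any library. Limma called 1 of 10 tested, C1qb, higher and 0 lower, and voom called 5 higher. An unadjusted p under 0.05 was reached by 7 of the 10, each higher, and in 9 of the 10 the ko pair exceeded the het pair. C1qa, C1qb and C1qc, the complement C1q chains, and Lyz2, a lysozyme, carried most of the sum. Over the 10 tested, the fold between group means ran from 0.988 for Mrc1, a mannose receptor (9.01 and 9.05 against 10.2 and 7.63 FPKM), to 5.02 for Fcgr1, an antibody receptor (0.475 and 0.508 against 2.84 and 2.09 FPKM). It was 1.18 for Csf1r, the receptor for macrophage growth factor, and 1.70 for Adgre1, a macrophage surface receptor. Fcgr1 had het values under 1 FPKM and passed the filter through its ko values. The part of macrophages in the IRG difference was not tested.

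Markers of T, NK and B cells, the usual sources of interferon gamma, were scarce, their 12 genes summing to 5.01 and 5.61 FPKM in the het pair against 7.73 and 8.29 FPKM in the ko pair. Of these, 4 were listed at 0 in het replicate 1, 1 in het replicate 2 and 0 in the ko libraries, and the 2 that were tested, Cd3e and Trac, were not called by limma or voom, with 0 under an unadjusted p of 0.05. Cd3g, a T cell receptor chain, had 3 and 4 reads in het and 25 and 15 in ko, and Gzma, a granzyme of killer cells, had 1 and 2 against 11 and 10. Their part was not tested either. Among other cells, limma called 0 of 8 Sertoli, 6 Leydig, 4 peritubular and endothelial, 6 spermatogonial, 7 spermatocyte and 4 spermatid markers tested. At an unadjusted p under 0.05, 4 spermatocyte markers and 1 peritubular or endothelial marker were lower, and voom called 3 spermatocyte markers lower.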

How the data were processed

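Testis poly(A) RNA was measured in 4 libraries. The authors deposited FPKM per gene symbol, per the file headers; the submitters' processing notes name CASAVA 1.9, STAR 2.6.1a, featureCounts, edgeR and GRCm38, without roles. The annotation, strand use and handling of reads with several matches: not given in the sources used here. Overlapping genes therefore cannot be told apart.

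Symbols were matched to GENCODE M21 (96.0% of rows). FPKM times exon length gave whole reads, within 0.02 for at least 99.1% of values up to 20 reads. The 17905 genes averaging 1 FPKM or more were fitted by genotype as log2(FPKM + 1) in limma 3.58.1 with an intensity trend (R 4.3.3), and called at a Benjamini-Hochberg adjusted p under 0.05. This replaces a count model because the tables hold no counts. The code was tested on simulated reads. With 2 replicates a group, p-values set the difference between the groups against a spread estimated partly from all genes fitted. Intervals cover counting error only. Promoters came from RefSeq (GRCm38.p6), with 7 of 8 members matched; the windows searched were the 32536 distinct ones outside chromosome 18.

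The members and lists were chosen with earlier results of these data known. Named genes were Kctd19, all members, Irgc1 and Irgq, up to 6 called genes of each list or otherwise the 2 of smallest p, called neighbours within 100 kb, and the 5 genes of most similar profile; other genes were named after their values were seen. A list is left without its summary, because 1 of its genes is not reported here. Alternatives were a pseudocount of 0.1, no filter, a replicate block, each library left out, voom on whole reads and median-of-ratios scaling.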

Additional observations from a re-analysis of the deposited data

How the results depend on the processing

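The count of called genes depended on the setting. Against 37 higher and 2 lower, limma called 0 and 0 with no filter on low values (1434 and 1206 at an unadjusted p under 0.05), and 0 and 0 when any 1 of the 4 libraries was left out (unadjusted p under 0.05: from 563 to 986 genes higher, from 498 to 1034 lower), where the lone library is assumed to vary like the other group. Fitted to whole reads of 17445 genes, voom gave 135 higher and 108 lower. With the replicate number as a block, limma called 15 higher and 0 lower (790 lower at an unadjusted p under 0.05). The deviations of same-numbered libraries correlated at r = -0.034 across genes. With 2 libraries a group, this cannot show whether same-numbered libraries shared a litter, date or batch. The labels give only the number. The causes of these changes were not tested.

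Of the IRG genes in the fit, limma called 4 higher with a pseudocount of 0.1, 3 with the block and 5 with median-of-ratios scaling. Over all 17905 genes tested it called 34, 15 and 39 higher in these settings. Without the filter it called 0 genes higher, in the family or outside it. As the family was chosen with this contrast known, these counts are a description only. All IRG genes kept a difference above 0 under each alternative run. Their median log2 difference was 2.41 to 2.61 with 1 library left out and 3.50 with a pseudocount of 0.1. The log2 difference of Irgq ran from -0.24 to 0.037 with 1 library left out, and turned above 0 without het replicate 2 (0.037) or ko replicate 2 (0.025). The calls of the 10 named genes past the threshold were lost when any 1 library was left out and without the filter. BC023105 also lost its call with a pseudocount of 0.1 (limma, Benjamini-Hochberg adjusted p = 0.175). With the block 5 of the 10 lost theirs, among them Nlrc5 (limma, Benjamini-Hochberg adjusted p = 0.0654), Stat2 and B2m (0.0713 each) and BC023105 (0.0998). Depth limits the het values of Gm12250, Tgtp1 and Tgtp2, which rest on 1 to 11 reads a library.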
